A study of Mus musculus with 6 samples.

Results

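The genes described here run the entry, folding and quality control of proteins in the endoplasmic reticulum (ER) of the adult female mouse submandibular gland (SMG). They are 41 of the 43280 rows of the raw count table, listed by name for what they do. The list holds 9 lumenal chaperones and cochaperones, 4 protein disulfide isomerases, 2 lectin chaperones, 4 sensors or factors of the unfolded protein response (UPR), 8 genes of ER-associated degradation (ERAD), 5 genes of the translocon, 4 of the translocon-associated protein (TRAP) complex and 5 of signal peptidase. All 41 were found under their own symbols and all 41 passed the filter on low counts, so every member was tested.

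RNA sequencing was done on 6 glands, 3 from wild type (WT) and 3 from Hs3st3a1;Hs3st3b1 double knockout (DKO) mice, to find genes that differ between the genotypes. Hs3st3a1 and Hs3st3b1 encode heparan sulfate 3-O-sulfotransferases, enzymes that place a rare sulfate on heparan sulfate chains at the cell surface and in the basement membrane. The line is on a C57BL/6 background, and both mutations sit on 1 allele: Hs3st3b1 carries a LacZ cassette, and Hs3st3a1 carries a frameshift deletion in exon 1 that zinc finger nucleases made in embryos heterozygous for the Hs3st3b1 allele. The WT animals carry neither mutation, and no treatment is listed for either group. The study kept several founders with different deletions, and the sources used here do not say which founder gave these glands or how old the mice were. The deletion is in the germline, so every cell type of the gland carries it. The libraries are numbered 1, 4 and 5 in each group, and values of single libraries are given in that order. Nothing in the labels says that the 3 glands of a group came from separate animals, so the p-values measure the spread between these samples.

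Salivary acinar cells secrete large amounts of protein, and each secreted chain enters the ER through the Sec61 channel while it is being made. Signal peptidase removes its signal peptide, chaperones and disulfide isomerases fold it, and chains that fail to fold are passed back to the cytosol and degraded. When unfolded protein builds up, the sensors Ire1, Perk and Atf6 start the UPR, in which the factors Xbp1 and Atf6 raise transcription of chaperone and ERAD genes through short promoter elements.

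The promoter elements are shown first, because they are known targets of the UPR factors and can be read without the counts. Promoters were read from RefSeq for GRCm38.p6, from 250 bases before to 50 bases after each gene's start, and 33 of the 41 members had an entry. Manf, Hyou1, Atf6, Sec61a1, Ssr2, Spcs3, Sec11c and Derl1 had none. Both strands were searched for the ER stress response element (ERSE, the letters CCAAT and CCACG with 9 free bases between them), for ERSE-II (ATTGG and CCACG with 1 free base between them) and for the UPR element (UPRE, TGACGTGG). The ERSE and ERSE-II share the letters CCACG, and the UPRE holds the reverse complement of those letters. An ERSE was present in 9 of the 33 members (27.3%), in contrast to 39 of all 32851 promoters (0.119%). An ERSE-II was present in 2 members (6.06%) and in 12 promoters of all (0.0365%). The UPRE was in 0 of the 33 members and in 222 promoters of all (0.676%). Such a match describes letters and not a bound site. The members were listed by name for what they do, chaperone and ERAD genes raised by the UPR among them. The contrast in ERSE and ERSE-II with all promoters thus follows from the choice of list and is not a result of these data. The matching stretches of all 11 members are given below on the strand that reads as the motif, with the fixed letters in capitals.
Hspa5 ERSE, chr2:34772025-34772043, plus strand: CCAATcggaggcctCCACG
Calr ERSE, chr8:84847075-84847093, plus strand: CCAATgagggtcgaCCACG
Derl3 ERSE, chr10:75893242-75893260, minus strand: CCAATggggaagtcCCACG
Hsp90b1 ERSE, chr10:86705638-86705656, minus strand: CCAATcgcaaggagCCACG
Hsp90b1 ERSE, chr10:86705533-86705551, plus strand: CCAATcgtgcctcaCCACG
Canx ERSE, chr11:50325800-50325818, minus strand: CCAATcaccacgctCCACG
Pdia6 ERSE, chr12:17266491-17266509, plus strand: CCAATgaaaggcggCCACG
Dnajc3 ERSE, chr14:118937827-118937845, plus strand: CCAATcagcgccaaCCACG
Creld2 ERSE, chr15:88819520-88819538, minus strand: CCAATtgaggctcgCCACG
Syvn1 ERSE, chr19:6046532-6046550, plus strand: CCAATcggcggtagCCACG
Herpud1 ERSE-II, chr8:94386377-94386387, plus strand: ATTGGgCCACG
Dnajb11 ERSE-II, chr16:22857852-22857862, plus strand: ATTGGcCCACG

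The stretch before the start is printed for 3 genes. Derl3 and Herpud1 are shown because they had the largest fold changes of the list, and Hsp90b1 because it holds 2 ERSEs and yet had one of the smallest. Each is written 5′ to 3′ along the gene, with the motif letters or their reverse complement in capitals, and ends where the GENCODE gene begins or at the RefSeq start.
Derl3, chr10:75893148-75893397, plus strand: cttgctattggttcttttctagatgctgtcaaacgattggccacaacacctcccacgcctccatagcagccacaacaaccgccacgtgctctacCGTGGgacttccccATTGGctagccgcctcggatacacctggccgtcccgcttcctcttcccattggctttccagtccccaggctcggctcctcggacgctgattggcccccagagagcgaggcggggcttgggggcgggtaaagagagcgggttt
Herpud1, chr8:94386179-94386428, plus strand: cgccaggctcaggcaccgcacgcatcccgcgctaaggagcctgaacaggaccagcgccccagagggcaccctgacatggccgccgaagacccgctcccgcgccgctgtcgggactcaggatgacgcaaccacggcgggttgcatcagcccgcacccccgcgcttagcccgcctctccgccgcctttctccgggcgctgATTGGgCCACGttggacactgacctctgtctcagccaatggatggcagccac
Hsp90b1, chr10:86705510-86705694, minus strand: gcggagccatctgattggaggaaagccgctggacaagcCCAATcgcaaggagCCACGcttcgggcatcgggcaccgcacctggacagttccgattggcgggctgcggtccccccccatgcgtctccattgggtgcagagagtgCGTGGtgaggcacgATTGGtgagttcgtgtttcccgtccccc

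Library totals ran from 23674258 to 29611975 counts, and size factors from 0.867 to 1.12. The 10 most abundant rows took 57.9 to 66.2% of each library, and mitochondrial rows 10.8 to 13.3%, with the highest share of both in DKO 4. The counts of the targeted genes did not tell the groups apart (Hs3st3a1 log2 fold change -0.22, adjusted p = 0.947; Hs3st3b1 -0.04, adjusted p = 0.976; DESeq2). Hs3st3a1 held only 8 to 15 raw counts a library, and counts per gene cannot show a frameshift or a cassette. By qPCR the paper found neither gene expressed in adult DKO glands of both sexes. The labels could not be checked from these counts, so WT and DKO stand for the labels, and all directions rest on them. WT 5 stood apart in Muc19, a mucin of the sublingual gland, with 62150 counts where the other 5 libraries held 27 to 3906. The row Smgc varied widely too, from 15983 counts in DKO 5 to 295383 in WT 1. Together the 41 members took 0.545 to 0.648% of a library labelled WT and 0.535 to 0.608% of one labelled DKO.

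Of the 41 members, 3 were higher in the libraries labelled DKO at an adjusted p under 0.05 in the DESeq2 Wald test and 0 were lower. These were Derl3, which moves misfolded chains out of the ER, Sec61a1, the pore of the translocon, and Sec11c, a catalytic subunit of signal peptidase. The rises were 1.39-, 1.31- and 1.25-fold. Over all 18606 rows tested, 2.9% were called in either direction, 1.02% higher and 1.88% lower, and the members' share was 7.32%. The members were abundant genes, and of the 5139 rows at least as abundant as the least abundant member, 2.65% were called higher. At an unadjusted p under 0.05 there were 10 members (24.4%), against 12.2% of all rows. All 3 calls were absent from edgeR and limma-voom, which called 0 members each and 0.0537% and 0.0376% of all rows. At an unadjusted p under 0.05 there were 8 members in both (19.5%), against 15% and 14% of all rows. In the other DESeq2 fits the share of all rows called was 2.88% with TMM size factors, 7.91% with total counts, 2.15% with no count filter, 3.56% with the stricter filter, 2.65% with independent filtering off, 2.91% with Cook's filter off and 1.84% with the replicate block. It was 0.83, 4.47 and 0.82% without WT 1, 4 or 5 and 4.06, 0.929 and 0.906% without DKO 1, 4 or 5.

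Small positive differences ran through the list. The log2 fold change of DKO over WT was above 0 for 38 members, with a median of 0.17 and a range from -0.12 (Pdia4) to 0.52 (Herpud1). It was above 0 for 50.2% of all rows tested, with a median of 0.00, and for 58.2% of the rows as abundant as the members, with a median of 0.04. With total counts as size factors, which lowered the median of all rows to -0.23, the members' median was -0.08 and 9 members were above 0, so the sign of most members depends on the scaling, and the members' median was above that of all rows under both. In 8 members each library labelled DKO lay above each library labelled WT (P4hb, Derl3, Sec61a1, Sec61b, Sec62, Ssr2, Spcs1 and Sec11c), which is 19.5% of the members beside 9.85% of all rows and 15.7% of the rows as abundant. In 0 members was the reverse seen, beside 10.5% of all rows.

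**Figure D1:**
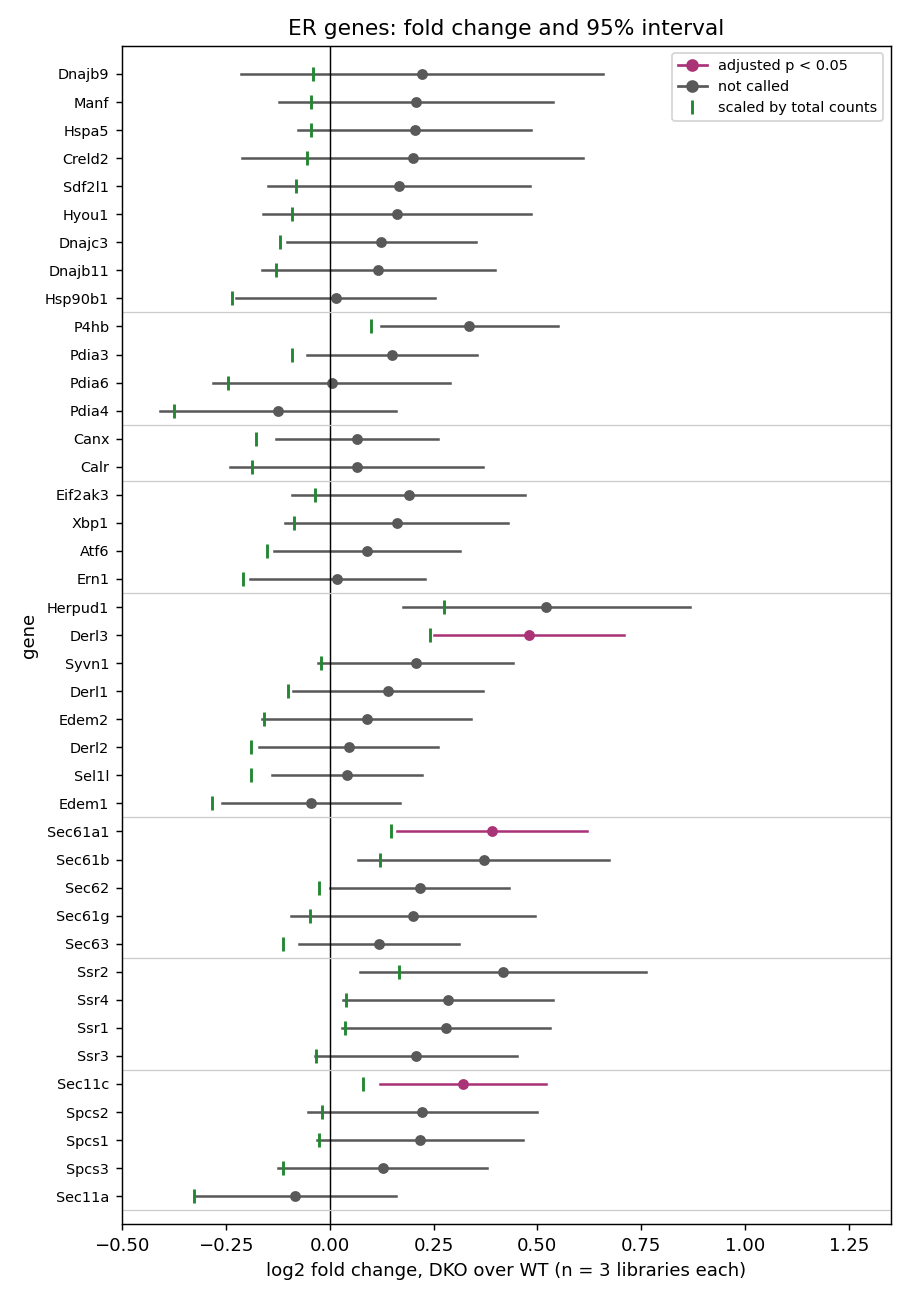
Log2 fold change of DKO over WT for each of the 41 ER genes, grouped by role, from DESeq2 with 3 libraries a group. Points are estimates and bars are 95% intervals, purple points have an adjusted p under 0.05, and green ticks give the estimate with total counts as size factors. Derl3, Sec61a1 and Sec11c are the purple points, and 38 of the points lie to the right of 0 while 9 of the ticks do.

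The translocon was examined first, as the point of entry. All 5 genes had a positive log2 fold change (median 0.22; 2 of 5 with total counts as size factors). In DESeq2 1 was called, beside 1.02% of all rows called higher. In 3 the DKO libraries lay above the WT libraries without overlap, beside 9.85% of all rows and 15.7% of the rows as abundant as the members. Sec61a1 (chr6:88503579-88518905, minus strand) encodes the channel itself. It stood at 6449, 6602 and 5867 normalized counts in the WT libraries and at 7317, 9613 and 7876 in the DKO libraries. The groups were separate, and DKO 4 was the highest of all. The mean rose from 6306 ± 388 to 8269 ± 1197 normalized counts (SD, n = 3), a log2 fold change of 0.39 (SE 0.12, 95% interval 0.16 to 0.62, adjusted p = 0.0316 in DESeq2). The call held without DKO 1 (adjusted p = 0.00524) and was lost when any other single library was left out, with adjusted p-values from 0.0536 (without WT 4) to 0.345 (without WT 5). An antisense gene, Gm44170, overlaps 549 exonic bases of Sec61a1, and unstranded reads cannot be assigned to either.

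The small channel subunit Sec61b was also separate between the groups, at 1204, 1159 and 1086 normalized counts in WT and 1209, 1874 and 1379 in DKO. DKO 1 lay only just above WT 1. Its log2 fold change was 0.37 (SE 0.15, adjusted p = 0.196 in DESeq2), and it passed the test only without DKO 1 (adjusted p = 0.0306). Without DKO 4 the log2 fold change was 0.17 (adjusted p = 0.66). Sec62 and Sec63, which assist entry after translation, had log2 fold changes of 0.22 and 0.12, and Sec61g, the third channel subunit, one of 0.20, with DESeq2 adjusted p-values of 0.359, 0.702 and 0.646.

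The TRAP complex binds the translocon and aids the entry of some chains. The median log2 fold change of its 4 genes was 0.28, which was 0.16 without DKO 4, and 0 passed the test. At an unadjusted p under 0.05 in DESeq2 there were 3 (Ssr1, Ssr2 and Ssr4), against 12.2% of all rows. Ssr2 had the largest difference, with 1265, 1176 and 957 normalized counts in WT and 1284, 1980 and 1273 in DKO. The groups did not overlap, but DKO 1 and DKO 5 were barely above WT 1, and DKO 4 was far above. The log2 fold change was 0.42 (SE 0.18, adjusted p = 0.207 in DESeq2), and without DKO 4 it was 0.18. Ssr3, the most abundant TRAP gene per kb of merged exon, read 5808, 5762 and 4975 normalized counts in WT and 6068, 7465 and 5579 in DKO. Its groups overlapped (log2 fold change 0.21, adjusted p = 0.493 in DESeq2).

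Signal peptidase contains either of the catalytic subunits Sec11a and Sec11c. Sec11c held 2441, 2626 and 2473 normalized counts in WT and 2799, 3294 and 3330 in DKO. The lowest DKO library was above the highest WT library, and this was 1 of 4 members in which DKO 5 was the highest of its group. The mean rose from 2514 ± 99.0 to 3141 ± 297 (SD, n = 3), a log2 fold change of 0.32 (SE 0.10, 95% interval 0.12 to 0.52, adjusted p = 0.0497 in DESeq2). This call was at the threshold. It was lost with independent filtering off (adjusted p = 0.0574), and it held without DKO 1 (0.00104) but not without any other single library (0.0614 without WT 4 to 0.359 without WT 1).

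The paralog Sec11a was at 837, 798 and 819 normalized counts in WT and 702, 884 and 729 in DKO, with overlapping groups and a log2 fold change of -0.08 (SE 0.12, adjusted p = 0.878 in DESeq2). The difference between the paralogs was not tested. Per kb of exon, Sec11c was the more abundant of the pair in both groups, at 369 against 177 normalized counts per kb in WT and 461 against 167 in DKO. The accessory subunits Spcs1 and Spcs2 had log2 fold changes of 0.22 each, and of 0.087 and 0.066 without DKO 4. Spcs3, the most abundant subunit per kb of merged exon, was at 2659, 2548 and 2157 normalized counts in WT and 2577, 3099 and 2366 in DKO, which overlapped (log2 fold change 0.13, adjusted p = 0.785 in DESeq2).

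Folding enzymes came next. Of the 15 chaperones, isomerases and lectin chaperones, 0 passed the test, 14 had a positive log2 fold change (scaled by total counts, only P4hb) and the median was 0.15. Hspa5 (BiP), the main Hsp70 of the ER and the classic UPR target, stood at 8698, 7723 and 7298 normalized counts in WT and 7883, 11359 and 8086 in DKO. The groups overlapped, with 2 of the DKO libraries inside the WT range and only DKO 4 above it. Its log2 fold change was 0.20 (SE 0.14, 95% interval -0.08 to 0.48, adjusted p = 0.607 in DESeq2), and without DKO 4 it was 0.01. The interval leaves room for a rise of the size seen for Sec61a1.

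Dnajb9 (ERdj4), a cochaperone that is among the most inducible UPR genes, had the largest difference of the lumenal group. Its normalized counts were 605, 549 and 492 in WT and 422, 905 and 592 in DKO, so that the DKO libraries held both the lowest and the highest value. The log2 fold change was 0.22 (SE 0.22, adjusted p = 0.784 in DESeq2) and turned to -0.12 without DKO 4. Hsp90b1 (Grp94), with 2 ERSEs, was at 6906, 5525 and 6089 normalized counts in WT and 5656, 7146 and 5905 in DKO, a log2 fold change of 0.01. Hyou1, Dnajb11, Dnajc3, Sdf2l1, Manf and Creld2, which are partners, cochaperones or stress-induced secreted proteins, lay between 0.12 and 0.21.

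Of the disulfide isomerases, P4hb (PDI) was by far the most abundant, and the most abundant member of the list, at 9282 normalized counts per kb of exon in WT and 11717 in DKO. Its normalized counts were 27357, 29080 and 23231 in WT and 32153, 36495 and 31922 in DKO. All 3 DKO libraries exceeded all 3 WT libraries. The log2 fold change was 0.34 (SE 0.11, 95% interval 0.12 to 0.55), and the DESeq2 adjusted p of 0.0553 missed the threshold. It passed only without WT 4 (adjusted p = 0.0213). The other isomerases, Pdia3, Pdia6 and Pdia4, had log2 fold changes of 0.15, 0.01 and -0.12. Without P4hb the isomerases summed to 7710, 6616 and 6603 normalized counts in WT and 6761, 8378 and 6715 in DKO, which overlapped. The lectin chaperones hold glycoproteins until they are folded. Calr was at 8542, 6257 and 6322 normalized counts in WT and 6762, 8997 and 6338 in DKO, and Canx at 7197, 6569 and 6174 in WT and 6501, 7549 and 6821 in DKO. Both overlapped, with a log2 fold change of 0.07 each and DESeq2 adjusted p-values of 0.934 and 0.885.

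**Figure D2:**
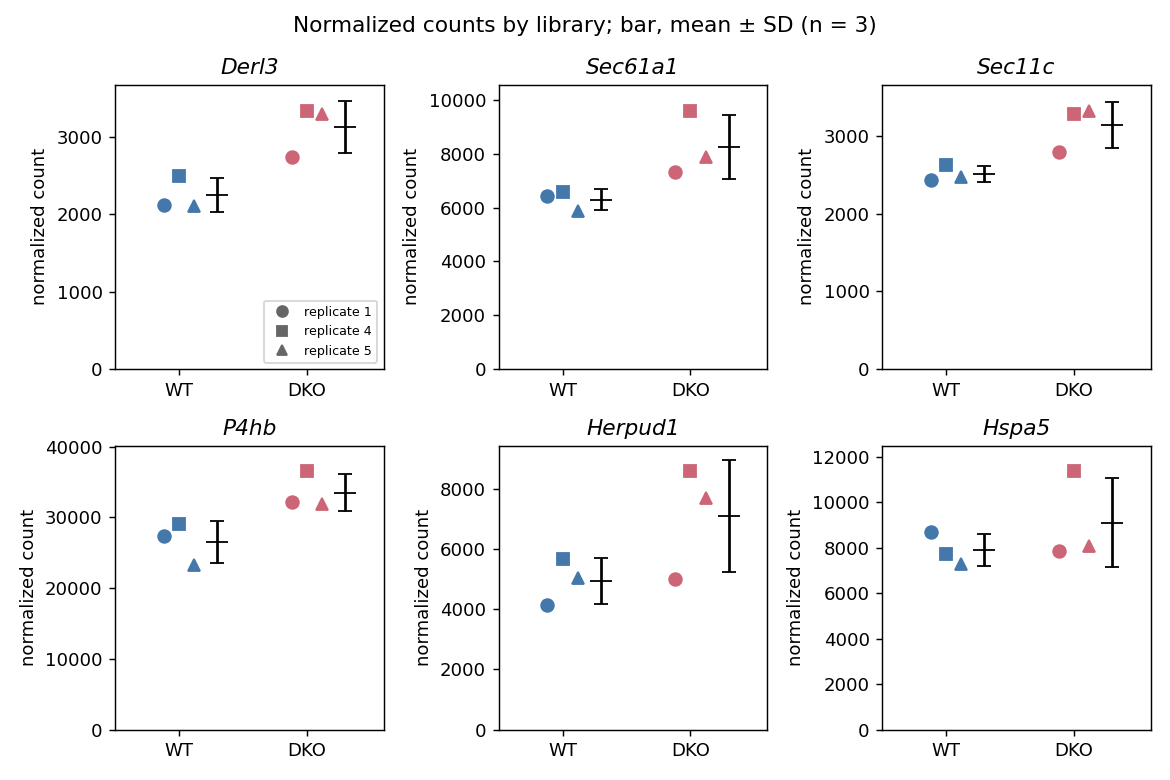
Normalized counts of 6 ER genes in each library, with the group mean and SD (n = 3) drawn beside the points. Derl3, Sec61a1, Sec11c and P4hb are separate between the groups, while Herpud1 and Hspa5 overlap, and in Hspa5 only DKO 4 lies above the WT libraries.

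ERAD gave the member with the strongest test. Derl3 (chr10:75893413-75895941, plus strand) encodes Derlin-3, a membrane protein of the retrotranslocation machinery. It gave 2122, 2495 and 2110 normalized counts in WT and 2742, 3337 and 3301 in DKO. Here DKO 4 and DKO 5 were alike and DKO 1 was lower, yet still above all of WT. The mean rose from 2242 ± 219 to 3127 ± 334 (SD, n = 3), or 1.39-fold, with a log2 fold change of 0.48 (SE 0.12, 95% interval 0.25 to 0.71, adjusted p = 0.00414 in DESeq2). In edgeR and limma-voom the adjusted p was 0.153 and 0.181. The estimate stayed between 0.43 and 0.57 when single libraries were left out, and the call held without WT 4 or DKO 1 (adjusted p = 7.13e-04 and 1.59e-04). It was lost without WT 1 (0.111), WT 5 (0.117), DKO 4 (0.0572) or DKO 5 (0.0975).

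The paralogs Derl1 and Derl2 did not pass the test, with log2 fold changes of 0.14 (SE 0.12) and 0.05 (SE 0.11) and DESeq2 adjusted p-values of 0.703 and 0.935. Per kb of exon, Derl3 was the most abundant of the family, at 1125 normalized counts per kb in WT, against 336 for Derl1 and 81.5 for Derl2. The 95% intervals of Derl1 (-0.09 to 0.37) and Derl2 (-0.17 to 0.26) overlap that of Derl3 in part, and the difference between paralogs was not tested.

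Herpud1, a scaffold of the ERAD ligase complex whose promoter carries the ERSE-II, had the largest log2 fold change of the list and the highest level per kb in the ERAD group. It read 4141, 5652 and 5022 normalized counts in WT and 5006, 8573 and 7689 in DKO. DKO 4 and DKO 5 were above all of WT, whereas DKO 1 lay inside the WT range. The log2 fold change was 0.52 (SE 0.18, 95% interval 0.18 to 0.87), and the DESeq2 adjusted p of 0.0718 missed the threshold. Without DKO 1 it was 1.43e-04, and without DKO 4 it was 0.771. The ligase Syvn1 (Hrd1) and its partner Sel1l had log2 fold changes of 0.21 and 0.04, and the mannosidase-like Edem1 and Edem2, which mark glycoproteins for degradation, had -0.05 and 0.09. All 4 had DESeq2 adjusted p-values of at least 0.474.

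Of the UPR sensors and Xbp1, 0 passed the test. Eif2ak3 (Perk) gave 2205, 2843 and 2428 normalized counts in WT and 2811, 2359 and 3359 in DKO, with overlap and with DKO 4 as the lowest of its group (log2 fold change 0.19, SE 0.14, 95% interval -0.09 to 0.47, adjusted p = 0.652 in DESeq2). Ern1 (Ire1) and Atf6 had log2 fold changes of 0.02 and 0.09. Xbp1, the factor that Ire1 activates by splicing its RNA, gave 6033, 6532 and 5617 normalized counts in WT and 5421, 8017 and 6899 in DKO. The DKO libraries spanned the WT range on both sides (log2 fold change 0.16, SE 0.14, adjusted p = 0.713 in DESeq2). Counts per gene do not separate the spliced from the unspliced form, nor do they show the phosphorylation of a sensor.

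**Figure D3:**
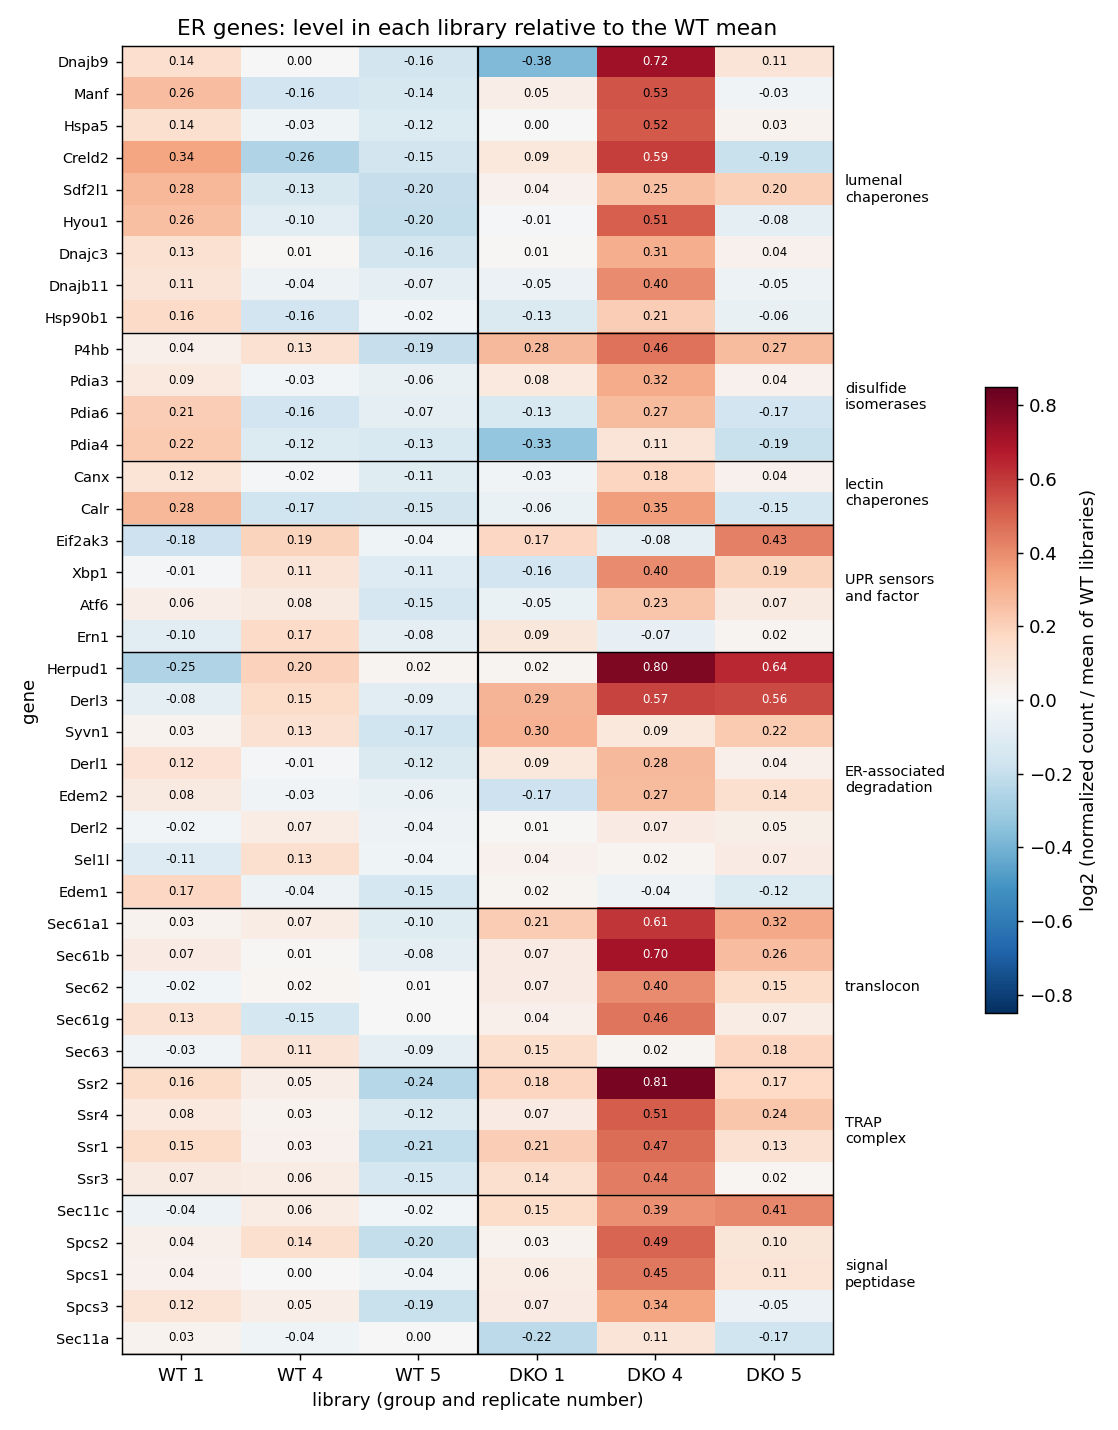
Level of each of the 41 ER genes in each library as log2 of its normalized count over the mean of the 3 WT libraries, red above and blue below. The DKO 4 column is the reddest, with a median of 0.39, while DKO 1 and DKO 5 have medians of 0.04 and 0.07 and WT 5 is mostly pale blue, with a median of -0.11.

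The libraries of 1 group differed from each other as much as the groups did. The median log2 ratio of the 41 members to their WT mean was 0.08, 0.01 and -0.11 in WT 1, 4 and 5 and 0.04, 0.39 and 0.07 in DKO 1, 4 and 5. DKO 4 was the highest DKO library in 34 members (82.9%), compared with 37.1% of all rows, and the highest of all 6 in 32. WT 1 was the highest WT library in 26 members (63.4%, all rows 35.9%), and WT 5 was the lowest WT library in 28 (68.3%, all rows 31.6%) and the highest in 0. Among rows as abundant as the members, DKO 4 was the highest of its group in 47.1%. The members' rows share these libraries and are not replicates, so these are counts and not tests. DKO 4 was also the library with the most mitochondrial counts, and WT 5 the one with the most Muc19. Within their groups WT 1 and DKO 4 held the most Smgc (295383 and 112573 counts). The part of any of these in this order was not tested.

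The counts are given by role as well. In 14 of the 15 folding genes WT 1 was the highest WT library, and in all 15 DKO 4 was the highest DKO library. In the 14 genes of the translocon, TRAP and signal peptidase these counts were 9 and 12, and in the 8 ERAD genes 3 and 5. In the 4 UPR genes WT 4 was the highest WT library each time, and it was in 49.8% of the rows as abundant as the members. Without DKO 4 the median log2 fold change of the folding genes was -0.04, with 7 of 15 above 0, whereas that of the entry genes was 0.13, with 13 of 14 above 0. The difference between these sets was not tested. Summed over all 41 genes, DKO 4 held 188107 normalized counts and the other 5 libraries 133390 to 159449.

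**Figure D4:**
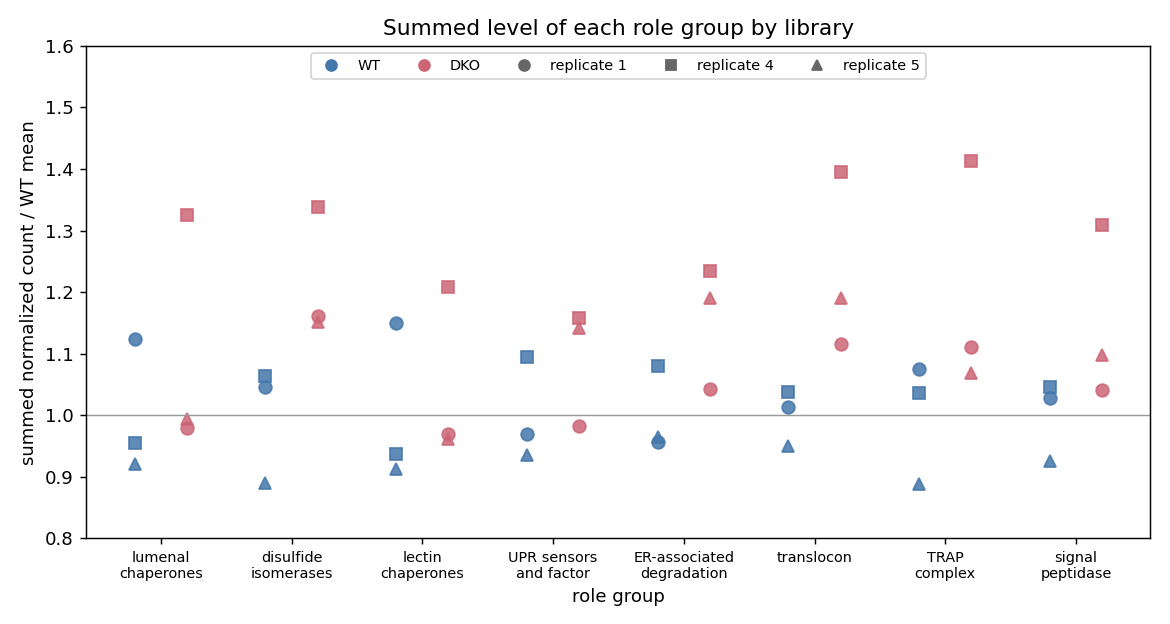
Summed normalized counts of each role group in each library, divided by the mean of the 3 WT libraries. Colours mark the group and shapes the replicate number. DKO 4 is the highest library in all 8 role groups, and the 3 DKO libraries lie above the 3 WT libraries in the disulfide isomerases, where P4hb takes 77.9 to 82.6% of the sum, and the translocon.

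Members with an ERSE or ERSE-II were set beside the others. The 11 genes with an element all had a positive log2 fold change (2 of 11 with total counts as size factors), with a median of 0.12 and 1 call (Derl3). The 22 matched members without one had a median of 0.18, with 19 above 0 and 0 calls. The 8 members with no promoter entry held the other 2 calls (Sec61a1 and Sec11c; median 0.18), so the calls of the sets cannot be compared. Derl3 and Herpud1, both printed above, were at the top of the range, while Pdia6 and Hsp90b1, with 3 ERSEs between them, were at 0.01. WT 1 was the highest WT library in 8 of the 11 genes with an element and in 13 of the 22 without.

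Other genes of the same pathways were taken from 6 lists. Of 58 tested, 51 had a positive log2 fold change (median 0.21), but 24 did with total counts as size factors (median -0.03). In DESeq2 6 were higher at an adjusted p under 0.05 and 0 were lower, beside 1.02% and 1.88% of all rows. In edgeR and limma-voom 0 of them passed, beside 0.0537% and 0.0376% of all rows. At an unadjusted p under 0.05 there were 18 and 20 (31% and 34.5%), against 15% and 14% of all rows. The 9 genes of the signal recognition particle and its receptor, which bring ribosomes to the translocon, were all positive (median 0.28; 7 of 9 with total counts) with 0 calls. The 11 further ERAD genes were also all positive (median 0.12; 2 of 11 with total counts) with 0 calls. Of the 13 genes that attach or trim N-glycans 12 were positive (median 0.18; 2 of 13 with total counts), and Mogs, the first trimming glucosidase, rose (log2 fold change 0.37, adjusted p = 0.0375 in DESeq2 and 0.209 without WT 5).

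Among 12 further folding enzymes 9 were positive (median 0.23; 5 of 12 with total counts) and 2 passed. Fkbp11, a prolyl isomerase of secretory cells, gave 563, 489 and 375 normalized counts in WT and 633, 904 and 798 in DKO, without overlap (log2 fold change 0.71, SE 0.18, adjusted p = 0.00532 in DESeq2 and 0.133 without WT 5). Ero1lb, the oxidase that recharges P4hb, rose as well (log2 fold change 0.33, adjusted p = 0.043 in DESeq2; 0.366 without WT 5). With total counts as size factors neither was called (DESeq2 adjusted p = 0.0644 for Fkbp11 and 0.614 for Ero1lb), nor was Mogs (0.557). Of the 5 further UPR regulators 1 passed. This was Creb3l1, an ER-anchored factor related to Atf6, with 1753, 2292 and 2294 normalized counts in WT and 2968, 3306 and 3186 in DKO. The groups were well apart (log2 fold change 0.58, SE 0.12, adjusted p = 5.03e-04 in DESeq2), and its adjusted p reached at most 0.0225 with a library left out but was 0.14 in edgeR.

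The list downstream of Perk and eIF2alpha had 8 genes, 7 of them positive (median 0.40; also 7 with total counts), and 2 passed. Trib3, a pseudokinase induced by Atf4, gave 23.8, 41.1 and 34.0 normalized counts in WT and 38.9, 141 and 158 in DKO, so that DKO 1 overlapped WT (log2 fold change 1.77, SE 0.44, adjusted p = 0.00589 in DESeq2; 0.23 without DKO 5). Chac1, which degrades glutathione, gave 29.7, 74.3 and 60.0 normalized counts in WT and 99.6, 281 and 986 in DKO (adjusted p = 0.039 in DESeq2). The groups did not overlap, but the DKO values were spread widely, with DKO 5 the highest, and without WT 1 the adjusted p was 0.339.

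The rest of that list did not pass. Asns, asparagine synthetase, was at 3514, 5087 and 4100 normalized counts in WT and 6200, 12461 and 7078 in DKO (log2 fold change 1.02, adjusted p = 0.0976 in DESeq2), without overlap. It did pass when libraries were scaled by total counts (adjusted p = 0.00178). Atf4 and Ddit3 (Chop), the factors of this branch, had log2 fold changes of 0.33 and 0.47 with DESeq2 adjusted p-values of 0.267 and 0.44. The phosphatase subunits Ppp1r15a and Ppp1r15b had 0.30 and 0.32 (0.597 and 0.0584), and Atf3 had -0.35 (0.789). Genes of this list are also induced by amino acid shortage, through kinases other than Perk, and these counts do not tell the inputs apart.

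Markers of the gland's cell types moved with the labels too. In the RNA of bulk tissue, fewer cells of a type and less RNA per cell cannot be told apart. On stained sections of adult female glands the paper counted more acinar cells and fewer ducts per area in DKO than in WT. Of 7 acinar markers 3 were higher (Aqp5, Agt and Agr2) and 0 lower, where 1.02% of all rows were called higher and 1.88% lower. The summed normalized counts of the 7 ran from 8329569 to 10148149 in WT and from 9987330 to 12231443 in DKO. Spt1, which was not called and overlapped, made up 99.5 to 99.7% of these sums. The other 6 markers summed to 28637 to 34398 in WT and 38663 to 57213 in DKO, without overlap. Bhlha15, a factor of mature secretory cells, was at 6044 ± 422 in WT and 6782 ± 14.7 in DKO (SD, n = 3; log2 fold change 0.17, adjusted p = 0.382 in DESeq2). Of 7 granular duct markers 5 were lower, with sums of 87217 to 101017 in WT and 47874 to 63362 in DKO, and of 7 myoepithelial markers 6 were lower, with sums of 10167 to 10993 and 5557 to 7361.

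Immune cells also express ER genes, plasma cells above all. Of 12 plasma and B cell markers 3 were lower (Ighm, Ighg1 and Ms4a1) and 0 higher, with sums of 5319 to 12729 in WT and 1764 to 9324 in DKO. Over all rows 1.88% were called lower and 1.02% higher. Ms4a1 overlapped, at 60.4, 0.978 and 5.37 normalized counts in WT and 0, 1.05 and 1.15 in DKO. With a library left out the DESeq2 adjusted p reached 0.0343 for Ighm, 0.1745 for Ighg1 and 0.397 for Ms4a1. Igj, Mzb1, Igha and Igkc had negative log2 fold changes but overlapped and were not called (DESeq2 adjusted p from 0.479 to 0.922). Of 6 T cell markers 4 were lower, with sums of 57.7 to 268 and 15.7 to 35.1, and Cd8a was at 0 in every DKO library. Without WT 1 the DESeq2 adjusted p was 0.344 for Cd3g, 0.409 for Cd4, 0.393 for Trbc2 and 0.00891 for Cd8a. Macrophage markers (2 of 4 lower, sums 1150 to 1811 and 895 to 1176) and fibroblast markers (2 of 4 lower, sums 8725 to 11932 and 6614 to 9315) were lower in part. The immune and fibroblast markers called lower in DESeq2 did not pass in edgeR or limma-voom. The 3 endothelial and 3 nerve markers gave 0 calls. Their sums were 1092 to 1325 and 117 to 158 in WT and 1307 to 1651 and 120 to 149 in DKO. Muc19 and Smgc also gave 0 calls, and Muc19 had no DESeq2 p-value. Smgc held 292306, 24598.6 and 186101 normalized counts in WT and 36564.5, 117664 and 18427.7 in DKO. Muc19 held 118.75, 51.8 and 55665.2 in WT and 3705.88, 28.2 and 54.2 in DKO. The part of these markers in the differences of the ER genes was not tested.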

How the data were processed

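RNA from 3 WT and 3 DKO female SMGs was sequenced by the authors with the Illumina Nextera XT unstranded kit on a HiSeq2500. The deposited raw count table, with 1 row per gene symbol, was used here. A filtered copy and a table of TMM-scaled CPM were not used. The submitters' processing notes name STAR 2.5.2a, DESeq2, edgeR and limma and the builds GRCh38, GRCm38 and mm10 without roles, and the counting tool and annotation are not given in the sources used here.

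Rows with at least 10 counts over the 6 libraries were tested with the two-sided Wald test of DESeq2 1.42.0 in R 4.3.3. This was the study's test, used here without the fold change cutoff that the study also applied. Size factors were median-of-ratios, fold changes were unshrunken and independent filtering was tuned to 0.1. P-values were adjusted by Benjamini-Hochberg over all rows, with a threshold of 0.05. Normalized counts are counts over size factors, and levels per kb use GENCODE M21 exons (GRCm38), which also gave the gene positions. The exons of all transcripts of a gene were merged, and a ranking per kb depends on the merged length. This was 3096 bases in 2 merged exons for Ssr4 and 1546 bases in 2 for Spcs1, so their levels per kb may be too low. Alternatives were edgeR 4.0.16 quasi-likelihood and limma 3.58.1 voom, both with TMM, DESeq2 scaled by TMM or by library totals, without a count filter or with 10 counts required in 3 libraries, with independent or Cook's filtering off or with a replicate block, and each library left out. The fits were tested on simulated data.

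Members and lists were chosen with earlier results of these data known. Values in every library are given for members called in DESeq2 or in an alternative that keeps all 6 libraries, and for the largest change and highest level per kb of each role. Of the other lists, called genes and the list downstream of Perk are named. Other values shown per library were chosen after they were seen. Counting depth was 23674258 to 29611975 per library. Libraries of 1 group differed beyond sampling noise (chi-square per degree of freedom 18.3 to 47.6), so each was 1 replicate.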

Additional observations from a re-analysis of the deposited data

How the results depend on the processing

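The least abundant member averaged 427 normalized counts. With TMM size factors, either count filter or Cook's filter off, DESeq2 again called 3 members, and 2 were called with independent filtering off. Over all rows, 539 calls became 10 in edgeR, 7 in limma-voom, 1472 with total counts as size factors and 343 with the replicate block, and ranged from 149 to 817 with a library left out. Of the members 0 were called in edgeR, in limma-voom and with total counts (8, 8 and 4 at an unadjusted p under 0.05, or 19.5, 19.5 and 9.76%, against 15, 14 and 20.8% of all rows). With a library left out 0 to 5 were called: 0 without WT 1, WT 5, DKO 4 or DKO 5 (10, 5, 6 and 9 at an unadjusted p under 0.05, or 24.4, 12.2, 14.6 and 22%, against 7.85, 7.86, 9.27 and 8.69% of all rows), 2 without WT 4 (Derl3 and P4hb) and 5 without DKO 1 (Derl3, Herpud1, Sec11c, Sec61a1 and Sec61b). The further ER genes gave 0 calls in edgeR and limma-voom and 2 to 11 with a library left out, in place of 6. With total counts they gave 4 (Asns, Chac1, Creb3l1 and Trib3). The cause of these changes was not tested.

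The members' median of 0.17 ranged from 0.053 (without DKO 4) to 0.23 with a library left out, and turned to -0.080 with total counts, as did 29 members: Hspa5 (-0.045), Hsp90b1 (-0.23), Hyou1 (-0.090), Dnajb9 (-0.040), Dnajb11 (-0.13), Dnajc3 (-0.12), Sdf2l1 (-0.080), Manf (-0.045), Creld2 (-0.055), Pdia3 (-0.092), Pdia6 (-0.245), Calr (-0.19), Canx (-0.18), Atf6 (-0.15), Ern1 (-0.21), Eif2ak3 (-0.036), Xbp1 (-0.085), Edem2 (-0.16), Syvn1 (-0.022), Sel1l (-0.19), Derl1 (-0.10), Derl2 (-0.19), Sec61g (-0.048), Sec62 (-0.025), Sec63 (-0.11), Ssr3 (-0.032), Spcs1 (-0.026), Spcs2 (-0.019) and Spcs3 (-0.11). Scaling by total counts lowered the median of all rows too, from 0.001 to -0.23, so this shift was not particular to the members. With a library left out the sign also turned for Hsp90b1 (-0.095 to 0.10), Hyou1 (-0.049 to 0.31), Dnajb9 (-0.12 to 0.45), Dnajb11 (-0.050 to 0.20), Creld2 (-0.043 to 0.40), Pdia6 (-0.15 to 0.12), Calr (-0.10 to 0.23), Ern1 (-0.027 to 0.11), Edem1 (-0.11 to 0.051), Edem2 (-0.012 to 0.21) and Sel1l (-0.0084 to 0.12), none of which passed the DESeq2 test.

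Whether the replicate numbers pair the libraries could not be settled from the counts. Deviations of same-numbered libraries from their group means correlated at -0.149, -0.0319 and -0.264 across 11489 genes. Between libraries of different numbers these correlations ran from -0.378 (WT 4 and DKO 1) to 0.452 (WT 5 and DKO 1). Deviations from a mean of so few libraries depend on each other, so they neither show nor exclude a pairing. With the replicate block 3 members were called, Derl3, Herpud1 (adjusted p = 0.00272) and Sec61a1, but not Sec11c (0.172). Of the further ER genes Asns was called with it (7.87e-11) and Mogs (0.251) and Ero1lb (0.115) were not, and Pdia6 turned to -4.14e-04.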
